A study of Homo sapiens with 12 samples.

Results

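The 56 broad constitutive accessible regions are stretches of open chromatin at least 1000 bp wide that carried an ATAC-seq peak in each of 12 libraries of G401 cells. They were chosen from the peak lists alone. Peaks of the 12 lists that overlapped by at least 1 bp were merged into 187088 regions, of which 18114 had a peak in all 12 lists and 56 of those reached 1000 bp. The broad regions therefore made up 0.309% of the regions found in every library and 0.0299% of all merged regions. Width and presence in each library chose them, so these values and the bases covered by peaks are described without a test.

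ATAC-seq uses a transposase that cuts and tags DNA where it is not wrapped around nucleosomes, and a peak marks a place where such cuts pile up. The tallest point of a peak is its summit. Open chromatin that is present in every condition of a cell line is typical of promoters of widely used genes and of binding sites of the insulator protein CTCF. Wide stretches of it are often seen at promoters in CpG islands and where several regulatory elements lie side by side. The lists are in the hg19 build and no annotation of that build was used, so whether a broad region lies at a gene start was not examined.

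G401 is an established rhabdoid tumour line, labelled SMARCB1(-/-), and that loss is shared by all groups. SMARCB1 is a core subunit of the BAF and PBAF forms of the SWI/SNF chromatin remodeller. Doxycycline, given for 24 h, induced either GFP, as the control, or SMARCB1, and each was combined with the solvent DMSO or with dBRD9-A, a compound that leads to degradation of BRD9, a subunit of the non-canonical form of the remodeller, which lacks SMARCB1. The design was thus 4 groups of 3 libraries: GFP DMSO, GFP dBRD9-A, SMARCB1 DMSO and SMARCB1 dBRD9-A. The labels do not say whether the 3 libraries of a group came from separate cultures, so the spread between them may be technical, and p-values measure that spread alone.

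The lists differed in length with the induction. The 6 GFP lists held 33428 to 50089 peaks and the 6 SMARCB1 lists 71169 to 96572. The height of the signal did not split in this way: over the 18114 regions found in all lists, the median number of fragments piled up at the strongest summit, recovered from the deposited fold and p-value, was 13 to 24 in the GFP libraries and 13 to 22 in the SMARCB1 libraries. To keep list length out of the ranks, each library's fold was ranked only among these 18114 regions.

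The broad regions were 1004 to 1498 bp wide, with a median of 1070.5 bp. The other 18058 regions found in every library had a median width of 281 bp. Most broad regions lay near the limit, with 35 under 1100 bp, 14 of 1100 bp to under 1200 bp and 7 of 1200 bp or more. The 5 widest were chr21:46493759-46495256 at 1498 bp, chr1:23882461-23883791 at 1331 bp, chr12:120632833-120634148 at 1316 bp, chr10:28973174-28974400 at 1227 bp and chr11:65274120-65275345 at 1226 bp. The 5 just inside the limit were chr8:22418568-22419571 at 1004 bp, chr16:30381535-30382539 at 1005 bp, chr18:74897560-74898565 at 1006 bp, and chr4:90758097-90759107 and chr9:37464975-37465985 at 1011 bp each. The 5 just outside were chr5:74230942-74231939 and chr11:1374367-1375364 at 998 bp each, chr10:21814381-21815373 at 993 bp, chr12:107487292-107488281 at 990 bp and chr11:78798264-78799251 at 988 bp. Regions on either side of the limit overlapped in their other values: peaks covered on average 54.3% to 87.2% of the 5 inside and 37.5% to 71.8% of the 5 outside.

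Of 62 merged regions of at least 1000 bp, 56 had a peak in every library and 6 did not. Those 6 had a peak in all 6 SMARCB1 libraries and lacked one in some or all GFP libraries. Of these, 5 were present in 2 to 4 GFP libraries, and 1, chr19:39156637-39157979, 1343 bp wide, was present in none. None of the 62 was missing from a SMARCB1 library. The width is that of a union over all lists, which grows with the number of lists holding a peak, so nothing is read from these counts.

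Most of the width of a broad region was not shared by all libraries. The 56 regions spanned 61477 bases, of which 19073, or 31.0%, lay under a peak in all 12 libraries, and 5182, or 8.43%, under a peak in a single library. The share held by all 12 had a median of 28.6% per region. It was highest, at 77.3%, in chr19:47759690-47760769, where each library had peaks over 904 to 1049 of 1080 bases. In 12 regions more than 50% of the bases were shared by all libraries. In 4 regions no base was shared by all 12, so that these passed as constitutive by way of peaks at different places: chr14:54414325-54415534, chr17:27052115-27053265, chr3:32884324-32885343 and chr4:90758097-90759107.

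**Figure D1:**
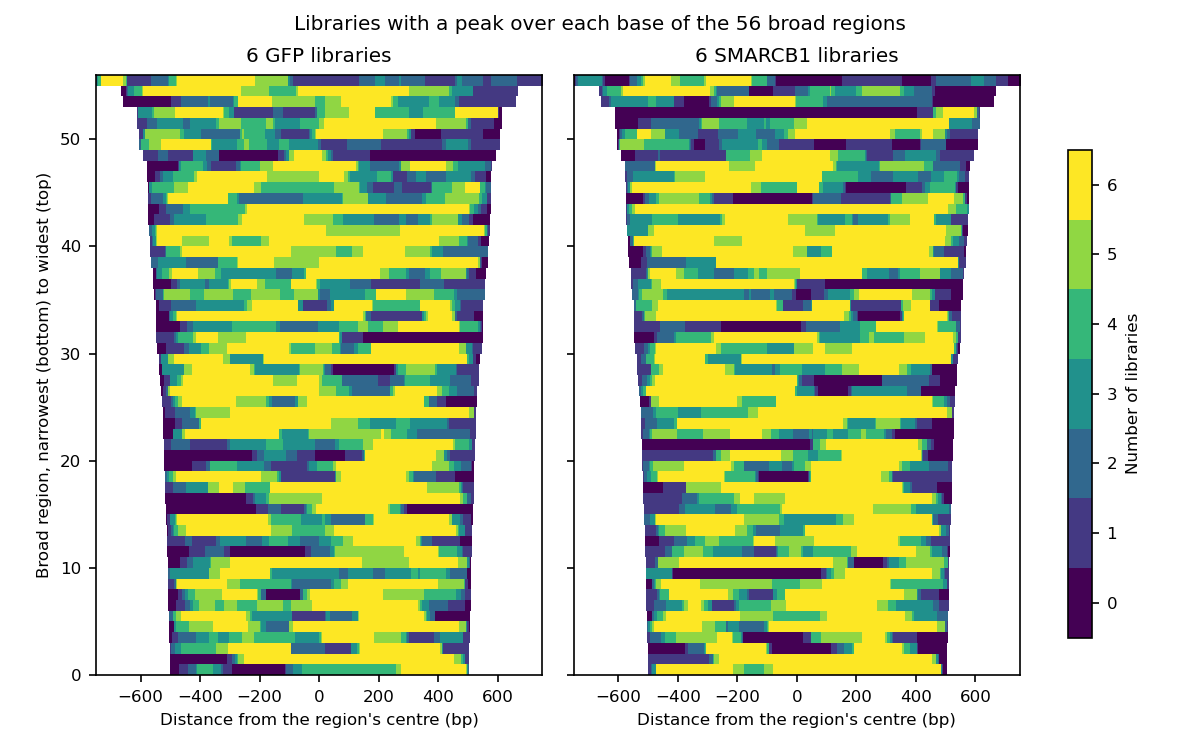
Number of GFP libraries (left) and SMARCB1 libraries (right) with a peak over each base of the 56 broad regions, one row per region, sorted by width, with the distance from the region's centre in bp on the horizontal axis. Stretches held by all 6 libraries of an induction are flanked by stretches held by fewer, and 31.0% of all bases are held by all 12 libraries.

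A single library rarely saw a broad region as 1 wide peak. In 28 of the 56 regions at least 1 library had a peak of 1000 bp or more, and in 0 regions did all 12. Counted from the start of its first peak to the end of its last, every library spanned at least 1000 bp in 1 region, chr1:201139659-201140804. In 41 regions 1 to 11 libraries did so, and in 14 regions no library did. The chr1:201139659 region was close to a continuous block: its peaks covered 854 to 1146 of its 1146 bases, and 10 of 12 libraries had a peak of at least 1000 bp there. At the other end, in the widest region, chr21:46493759-46495256, the covered bases ran from 328 to 1119 of 1498 and the widest single peak measured 726 bp.

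Most regions held more than 1 peak in at least some libraries. Of the 672 combinations of a region and a library, 298 (44.3%) held 1 peak, 325 held 2, 45 held 3 and 4 held 4. Only chr16:30381535-30382539 and chr2:112811772-112812919 had 1 peak in each of the 12 libraries. At least 2 peaks in every library were found in 3 regions, and the other 51 were 1 peak in some libraries and several in others. The most peaks per library were found in chr21:46493759-46495256, with a mean of 2.67, followed by chr3:170074476-170075573 with 2.42 and chr15:72409843-72411054 with 2.33. In narrower regions found in all libraries, the mean per library lay between 1.03 and 1.04 peaks. Peak number is tied to the width that chose the broad regions, so nothing is read from this comparison.

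The covered share of the broad regions did not separate the 4 groups. Peaks covered on average 66.6% ± 8.49 (SD, n = 3) of a broad region in GFP DMSO, 65.4% ± 8.52 in GFP dBRD9-A, 67.6% ± 1.37 in SMARCB1 DMSO and 65.1% ± 8.58 in SMARCB1 dBRD9-A. The differences between group means were smaller than the spread within 3 of the 4 groups. The libraries with the highest share, GFP DMSO 1 at 76.0% and GFP dBRD9-A 3 at 75.0%, had the highest median summit pileups of all, 23 and 24 fragments. The library with the lowest share, SMARCB1 dBRD9-A 2 at 55.3%, was 1 of 2 with the lowest median pileup, 13 fragments. The part of signal depth in these shares was not tested. In the narrower regions the covered share was 69.7% ± 4.94 (SD, n = 6) in GFP and 75.2% ± 2.93 in SMARCB1 libraries.

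The number of peaks per broad region overlapped between the groups as well. It averaged 1.72 ± 0.105 (SD, n = 3) in GFP DMSO, 1.60 ± 0.0676 in GFP dBRD9-A, 1.60 ± 0.223 in SMARCB1 DMSO and 1.63 ± 0.109 in SMARCB1 dBRD9-A. Peak number and coverage did not go together in every library: GFP DMSO 3 split its coverage into 103 peaks over 59.4% of a region on average, and GFP dBRD9-A 3 had 85 peaks over 75.0%.

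**Figure D2:**
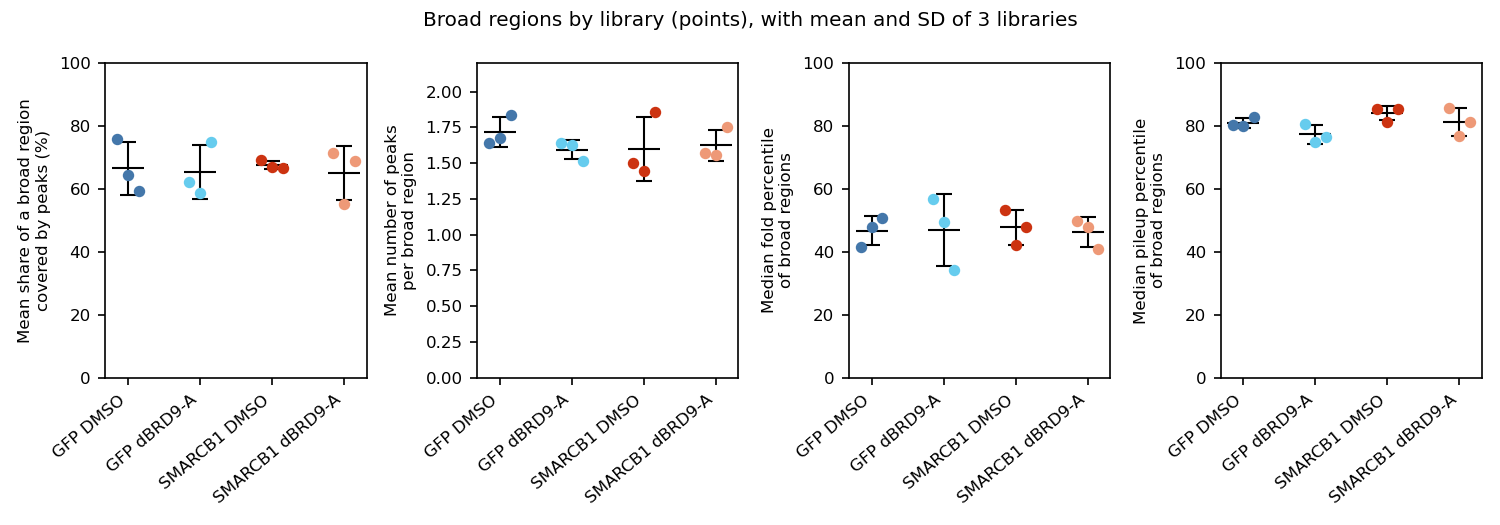
Mean covered share (%), mean number of peaks, median fold percentile and median pileup percentile of the 56 broad regions in each library (points), with the mean and SD of the 3 libraries of each group (bars). The 4 groups overlap in the covered share, the number of peaks and the fold percentile, and the pileup percentile exceeds the fold percentile in every library.

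The sign of the difference in coverage followed the induction whose libraries chose the regions. Such regions are unions of the choosing libraries' own peaks, which favours their coverage, so nothing is read from the sign. From the 6 GFP libraries alone, 37 regions of at least 1000 bp with a peak in all 6 were found, and peaks covered 71.7% of them in GFP and 64.1% in SMARCB1 libraries. From the 6 SMARCB1 libraries alone, 32 such regions were found, with 57.7% covered in GFP and 77.1% in SMARCB1 libraries. Of the 56 broad regions, 26 overlapped a region of the SMARCB1-based choice. Regions chosen in replicates 1 and 2 of each group numbered 37. The replicate 3 libraries, 1 per group, had no part in that choice. In them 58.3% was covered in GFP DMSO, 72.0% in GFP dBRD9-A, 67.4% in SMARCB1 DMSO and 69.3% in SMARCB1 dBRD9-A. Their median summit pileups were, in the same order, 14, 24, 19 and 21 fragments.

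Individual regions did differ in where the 2 inductions had peaks. Peaks of GFP libraries alone covered 7719 bases (12.6%) of the broad regions and peaks of SMARCB1 libraries alone 5000 (8.13%). Bases with a peak in 6 of 6 GFP and 0 of 6 SMARCB1 libraries numbered 432 and lay in 4 regions, and the reverse numbered 249 and lay in 5. In 5 of the 56 regions the covered bases of the 6 SMARCB1 libraries did not overlap those of the 6 GFP libraries. SMARCB1 was higher in 3, against a background of 4.07% of the 18114 regions, and GFP in 2, against 0.282%. For the base counts no share over all 18114 regions is given. The choice of regions used these bases, so nothing is read from the counts.

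The largest of these 5 contrasts lay in chr10:28973174-28974400. Its covered bases were 937, 520 and 580 in GFP DMSO, 846, 895 and 1099 in GFP dBRD9-A, 153, 139 and 149 in SMARCB1 DMSO, and 149, 104 and 213 in SMARCB1 dBRD9-A. Each SMARCB1 library had 1 narrow peak at the far end, about the summit at 1151 bp from the region's start that all 12 libraries shared within 16 bp, and each GFP library had 2 or 3 peaks reaching over the rest of the region. A cluster of summits at 152 bp from the start was found in 6 GFP and 0 SMARCB1 libraries, the only cluster of this kind among the broad regions. In chr1:167436015-167437059, the other region with more bases in GFP, the GFP libraries covered 390 to 1009 bases and the SMARCB1 libraries 360 to 384.

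In the 3 regions with more bases in SMARCB1 libraries, those libraries had wider peaks or joined peaks that were separate in GFP libraries. In chr2:112811772-112812919, 1 peak in every library covered 744 to 1056 of 1148 bases in GFP and 1077 to 1148 in SMARCB1. In chr9:4984400-4985441 the strongest summit stayed between 716 and 753 bp from the start, while covered bases were 379, 434 and 398 in GFP DMSO, 243, 274 and 470 in GFP dBRD9-A, 588, 678 and 827 in SMARCB1 DMSO, and 702, 479 and 692 in SMARCB1 dBRD9-A. In chr8:22418568-22419571 the GFP libraries covered 229 to 787 bases and the SMARCB1 libraries 852 to 987, and 4 of the 6 SMARCB1 libraries joined both ends of the region in 1 peak.

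**Figure D3:**
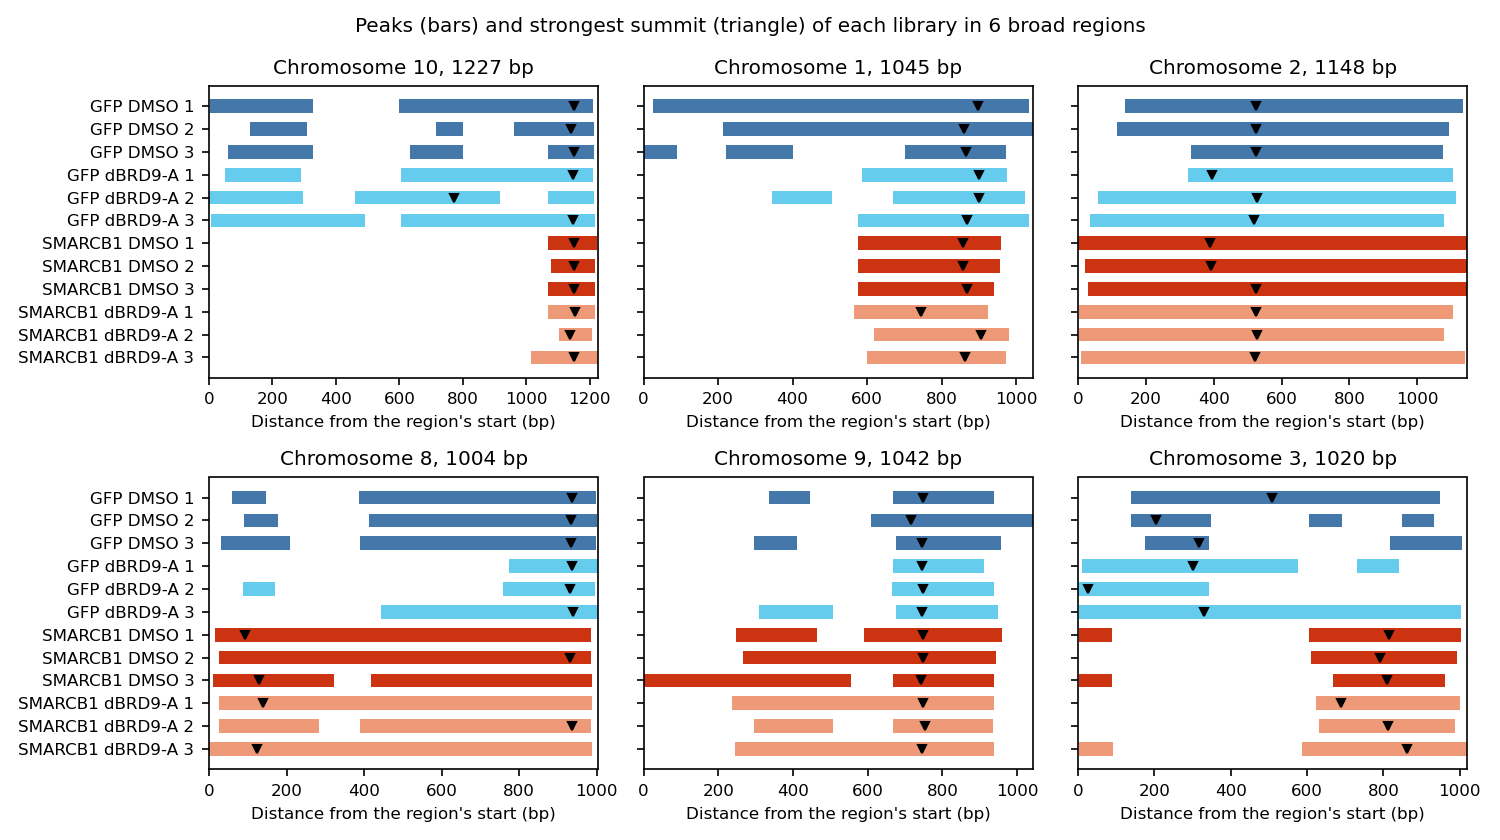
Peaks (bars) and strongest summit (triangle) of each library in named broad regions, with the distance from the region's start in bp. The 5 regions whose covered bases did not overlap between GFP and SMARCB1 libraries are shown. The chromosome 3 region, whose strongest summit position was called, is added. In the chromosome 10 region the SMARCB1 libraries cover 104 to 213 bases and the GFP libraries 520 to 1099.

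Summits within a broad region fell at several separate places. When summits of the 12 libraries lying within 100 bp of the next were joined, the 56 regions held 197 clusters of summits, 2 to 7 per region. In 13 regions there were 2 clusters, 3 in 17, 4 in 15, 5 in 7, 6 in 3 and 7 in 1. A cluster present in all 12 libraries was found in 17 regions, 1 in each, and 41 clusters came from a single library. Clusters found in GFP libraries alone numbered 36 and those in SMARCB1 libraries alone 28. There were 0 clusters in 6 SMARCB1 and 0 GFP libraries. No matching shares over the narrower regions are given, so nothing is read from these counts.

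Neighbouring summits of the same library lay 129 to 1090 bp apart over 427 pairs, with a median of 500 bp and middle values, from the lower to the upper quartile, of 362 to 650.5 bp. The median was 465 bp in GFP libraries and 522 bp in SMARCB1 libraries. Between the edges of neighbouring peaks the gap was 81 to 787 bp, with a median of 167 bp.

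The strongest summit is that of the peak with the highest fold. Its range over the 12 libraries had a median of 365.5 bp per region and ran from 15 bp in chr19:7934958-7935976 to 981 bp in chr17:27052115-27053265. In 6 regions all 12 strongest summits lay within 100 bp, and in 19 they were spread over more than 500 bp. It was placed in the outer 25% at either end of the region in 280 of 672 cases (41.7%). Pairs of libraries of the same group placed it within 100 bp of each other in 64.0% of broad regions, pairs of the same induction and the other treatment in 63.6%, and pairs of different inductions in 58.8%. In narrower regions these shares were 92.4%, 92.4% and 91.2%. A median width of 281 bp leaves less room there for summits over 100 bp apart, so nothing is read from this difference.

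The regions at the ends of that range show the contrast. In chr19:7934958-7935976 the strongest summits lay at 770, 759 and 766 bp from the start in GFP DMSO, 759, 768 and 770 in GFP dBRD9-A, 769, 769 and 774 in SMARCB1 DMSO, and 769, 766 and 765 in SMARCB1 dBRD9-A. In chr17:27052115-27053265 they lay at 116, 113 and 111 bp in GFP DMSO, 126, 274 and 115 in GFP dBRD9-A, 1075, 1040 and 114 in SMARCB1 DMSO, and 1092, 123 and 1059 in SMARCB1 dBRD9-A. The GFP libraries of the latter thus kept to the first part of the region, and the SMARCB1 libraries were divided between both ends, 4 at the far end and 2 near the start.

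The position of the strongest summit was compared between inductions by limma over all 18114 regions, with Benjamini-Hochberg adjustment. It called 90 regions, 0.497%, and 1 broad region, chr3:32884324-32885343. There the strongest summits lay at 507, 205 and 316 bp from the start in GFP DMSO, 302, 27 and 331 in GFP dBRD9-A, 815, 791 and 810 in SMARCB1 DMSO, and 689, 812 and 862 in SMARCB1 dBRD9-A. The strongest summits of the 2 inductions did not overlap. The shift was 515 bp towards the end of the region (SE 65.7, limma adjusted p = 0.00725). A summit cluster at 813.5 bp from the start was found in 3 GFP and 5 SMARCB1 libraries. The GFP libraries among them thus had a peak of lower fold there. The pileup at the strongest summit was 7 to 28 fragments. All 6 GFP libraries and no SMARCB1 library had a peak over 168 of the region's bases. None of its 1020 bases was shared by all 12 libraries.

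An exact two-sided permutation test within treatments could hardly have called any region. The exact permutation p was 0.005 for this region, the smallest that its 400 arrangements allow, which is 0.435 after adjustment over all 18114 regions. Only 208 regions reached that smallest p, too few for any adjusted p under 0.05, so its 0 calls say nothing about this region. With the exact test 7 broad regions (12.5%) and 7.15% of all regions had an unadjusted p under 0.05. When all summits of a library were averaged with their fold as weight, the shift was 247 bp (limma adjusted p = 0.440). That weighted position called 98 regions, 0.541%, and 1 broad region, chr10:28973174-28974400, by 380 bp towards the end (SE 9.36, limma adjusted p = 4.57e-08), where the GFP libraries alone had a second set of peaks near the start.

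Within 1 treatment the summit position called other regions. In DMSO limma called 58 regions, 0.32%, and 1 broad region, chr21:46749599-46750781, whose strongest summits lay at 550, 537 and 550 bp in GFP and 620, 619 and 620 in SMARCB1 libraries (74.0 bp, SE 11.5, limma adjusted p = 0.0363). In dBRD9-A the same region had 549, 562 and 583 bp in GFP and 586, 557 and 601 in SMARCB1 libraries, which overlapped, and averaged over treatments it missed the threshold (45.3 bp, limma adjusted p = 0.0601). The difference between its shifts in the 2 treatments was not called (limma adjusted p = 0.951, against 0.0607% of regions called). In dBRD9-A limma called 66 regions, 0.364%, and the chr3:32884324 region among them (568 bp, SE 92.9, adjusted p = 0.0450).

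Averaged over treatments, leaving out 1 of 4 libraries added a summit call. Without GFP dBRD9-A replicate 3 or SMARCB1 dBRD9-A replicate 2, chr21:46749599-46750781 was called as well (limma adjusted p = 0.0331 and 0.0113). Without SMARCB1 dBRD9-A replicate 1, chr17:47723636-47724708 was called, by 334 bp towards the end (limma adjusted p = 0.00247). Without SMARCB1 DMSO replicate 2, chr3:170074476-170075573 was called, by -307 bp, towards its start (limma adjusted p = 0.0294). Fits that left out 1 library called 86 to 117 of all regions.

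Within a treatment the summit calls depended on single libraries. The chr21:46749599 call in DMSO remained in 4 of the 12 fits that left out 1 library, and the chr3:32884324 call in dBRD9-A in 2 of 12. In DMSO the chr3:32884324 shift was called without GFP dBRD9-A replicate 2 (463 bp, limma adjusted p = 0.0492). In dBRD9-A, without SMARCB1 dBRD9-A replicate 1, limma called chr17:47723636-47724708 (667 bp, adjusted p = 0.000402) and chr9:37464975-37465985 (336 bp, adjusted p = 0.0204). That fit had 2 SMARCB1 dBRD9-A libraries. Over the 12 fits limma called 60 to 87 of all regions in DMSO and 66 to 97 in dBRD9-A.

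The broad regions combined many fragments with ordinary fold enrichment. A peak's fold, as the authors deposited it, is (pileup + 1) divided by (background + 1), where the background is what the peak caller takes from the surrounding reads. Ranked within each library among the regions found in all 12 lists, from 0 for the lowest to 100 for the highest, the broad regions had a median fold percentile of 34.3 to 56.7, on average 46.9 ± 6.12 (SD, n = 12). Their median pileup percentile was 74.9 to 85.6, on average 80.9 ± 3.58. All 56 had a higher mean pileup percentile than mean fold percentile. How far the choice by width bears on these ranks was not tested.

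Both the numerator and the denominator of the fold were raised. The median pileup at the strongest summit was 20 to 40.5 fragments in the broad regions and 13 to 24 in the narrower ones. The median background was 1.04 to 2.27 fragments against 0.266 to 0.572, and its ratio between broad and narrower regions was 3.40 to 4.86 in the 12 libraries. The part of the background in the fold ranks was not tested. By group the median fold percentile of the broad regions was 46.8 ± 4.65 (SD, n = 3) in GFP DMSO, 46.9 ± 11.4 in GFP dBRD9-A, 47.8 ± 5.52 in SMARCB1 DMSO and 46.3 ± 4.67 in SMARCB1 dBRD9-A, all within the spread between libraries.

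The regions varied widely among themselves in rank. Their mean fold percentile over 12 libraries ran from 8.16 to 76.7, with 25 above 50, 11 below 25, 2 below 10 and 0 above 90. Their mean pileup percentile ran from 32.6 to 98.7, with 49 above 50 and 17 above 90. The highest mean fold percentiles were 76.7 ± 11.8 (SD, n = 12) in chr16:30381535-30382539, 74.6 ± 10.5 in chr9:4984400-4985441 and 74.4 ± 9.47 in chr11:66079626-66080679. The lowest were 8.16 ± 6.11 in chr14:54414325-54415534, 9.71 ± 4.30 in chr1:23882461-23883791 and 11.8 ± 6.73 in chr12:53289630-53290679.

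Low fold did not always mean few fragments. In chr16:30381535-30382539 the fold was 13.4 to 22.2 with a median of 17.1, and the pileup 38 to 86 fragments with a median of 49. In chr1:23882461-23883791, second widest of all, the fold was 5.20 to 7.64 with a median of 6.64, yet 16 to 48 fragments were piled up, with a median of 33, which put it at a mean pileup percentile of 83.6. The region of lowest fold, chr14:54414325-54415534, had 9 to 24 fragments with a median of 15, a mean pileup percentile of 43.1 and no base shared by all libraries. The lowest mean pileup percentile, 32.6, was that of chr4:90758097-90759107, at a mean fold percentile of 22.0. The highest mean pileup percentile, 98.7, was that of chr19:7934958-7935976, with 45 to 101 fragments, a mean fold percentile of 35.7 and the most constant summit.

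**Figure D4:**
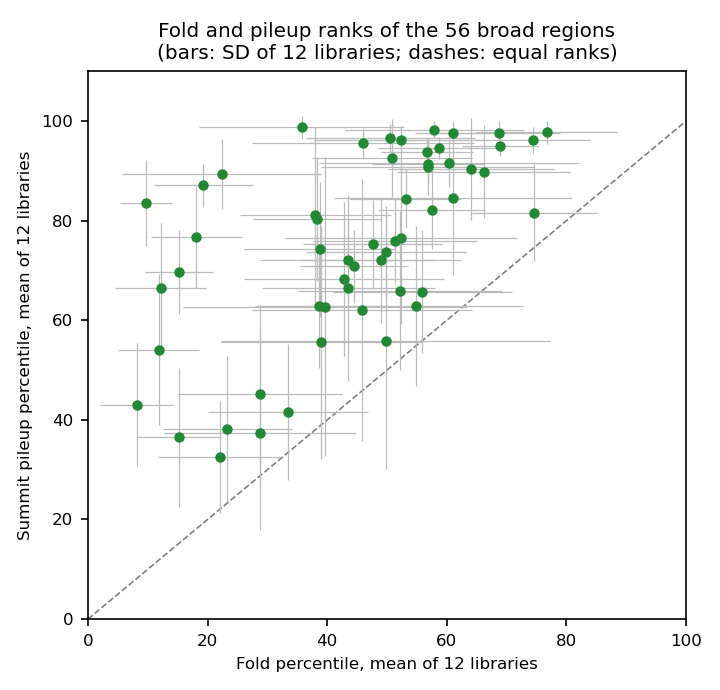
Mean fold percentile (horizontal) against mean summit pileup percentile (vertical) of the 56 broad regions over 12 libraries, with bars for the SD and a dashed line where both ranks are equal. All 56 points lie above the line, and 17 exceed a pileup percentile of 90 where 0 exceed a fold percentile of 90.

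The fold rank of 4 broad regions differed between the inductions. The fold was not a criterion in the choice of the regions, though the p-values of the peaks come from the same pileup and background. Its percentile was tested by limma over all 18114 regions, averaged over both treatments. Of all regions 978 rose (5.4%) and 521 fell (2.88%). On the log2 scale of the fold without centring the split was 599 against 145. Of the broad regions 3 rose and 1 fell, a share of 7.14% against 8.28% of all regions, so the broad regions were called about as often as the rest. At an unadjusted p under 0.05, 7 were higher and 4 lower, 19.6% against 22.0% of all. The median difference was -0.264 percentile points over the broad regions and -1.10 over all.

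The largest rise was in chr1:209269291-209270405, 1115 bp wide. Its fold percentile was 31.9, 33.7 and 11.7 in GFP DMSO, 27.7, 47.0 and 6.62 in GFP dBRD9-A, 83.9, 62.9 and 70.3 in SMARCB1 DMSO, and 90.7, 62.3 and 68.8 in SMARCB1 dBRD9-A. All SMARCB1 libraries were above all GFP libraries, and the rise was 46.7 points (SE 9.24, limma adjusted p = 0.00330). The fold itself averaged 9.06 ± 2.22 (SD, n = 6) in GFP and 16.7 ± 3.67 in SMARCB1 libraries, and the pileup 14.0 ± 7.13 and 29.0 ± 9.70 fragments. The SMARCB1 libraries each had 1 peak here, and in GFP the covered bases ran from 184 to 805 over 1 to 3 peaks.

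A second region of chromosome 1, chr1:205270068-205271098, also rose. Its fold percentile was 43.6, 36.9 and 50.6 in GFP DMSO, 51.1, 54.1 and 27.3 in GFP dBRD9-A, 76.4, 90.1 and 82.1 in SMARCB1 DMSO, and 69.4, 71.4 and 80.0 in SMARCB1 dBRD9-A. The inductions did not overlap and differed by 34.3 points (SE 7.61, limma adjusted p = 0.00781). Its pileup was 18 to 40 fragments in GFP and 28 to 81 in SMARCB1 libraries, and its central cluster of summits, at 539 bp from the start, was present in all 12 libraries.

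The third rise came from a low level. In chr5:1327025-1328044 the fold percentile was 4.90, 8.66 and 13.1 in GFP DMSO, 22.1, 6.35 and 1.07 in GFP dBRD9-A, 37.1, 51.0 and 31.3 in SMARCB1 DMSO, and 24.1, 47.8 and 21.0 in SMARCB1 dBRD9-A. The lowest SMARCB1 library, at 21.0, lay below the highest GFP library, at 22.1. The rise was 26.0 points (SE 6.56, limma adjusted p = 0.0182) and was not called when the fold was averaged over the region's peaks (13.1 points, limma adjusted p = 0.243). The number of peaks differed too: 5 of 6 GFP libraries had 1 peak here and 5 of 6 SMARCB1 libraries had 2.

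The fall was in chr8:22418568-22419571. Its fold percentile was 74.0, 75.6 and 88.0 in GFP DMSO, 79.2, 80.7 and 78.4 in GFP dBRD9-A, 45.8, 33.7 and 38.3 in SMARCB1 DMSO, and 26.2, 63.0 and 41.6 in SMARCB1 dBRD9-A. All SMARCB1 libraries were lower, by 37.9 points on average (difference -37.9, SE 7.90, limma adjusted p = 0.00502). This is also the region whose covered bases were higher in every SMARCB1 library. Its strongest summit lay at 930 to 939 bp in the 6 GFP libraries, at 932 and 935 bp in 2 SMARCB1 libraries, and at 94 to 139 bp in the other 4.

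At its strongest summit the pileup in that region was 26 to 54 fragments in GFP and 31 to 54 in SMARCB1 libraries, while the background averaged 1.17 ± 0.459 (SD, n = 6) and 2.72 ± 0.675. Ranked by pileup the difference was 1.86 points (limma adjusted p = 0.715), and ranked by -log10 p it was -13.7 points (limma adjusted p = 0.102). Averaged over the region's peaks, the fold gave -18.9 points (limma adjusted p = 0.216). Fold, pileup and background were all read at the strongest summit, which was not at the same place in all libraries.

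**Figure D5:**
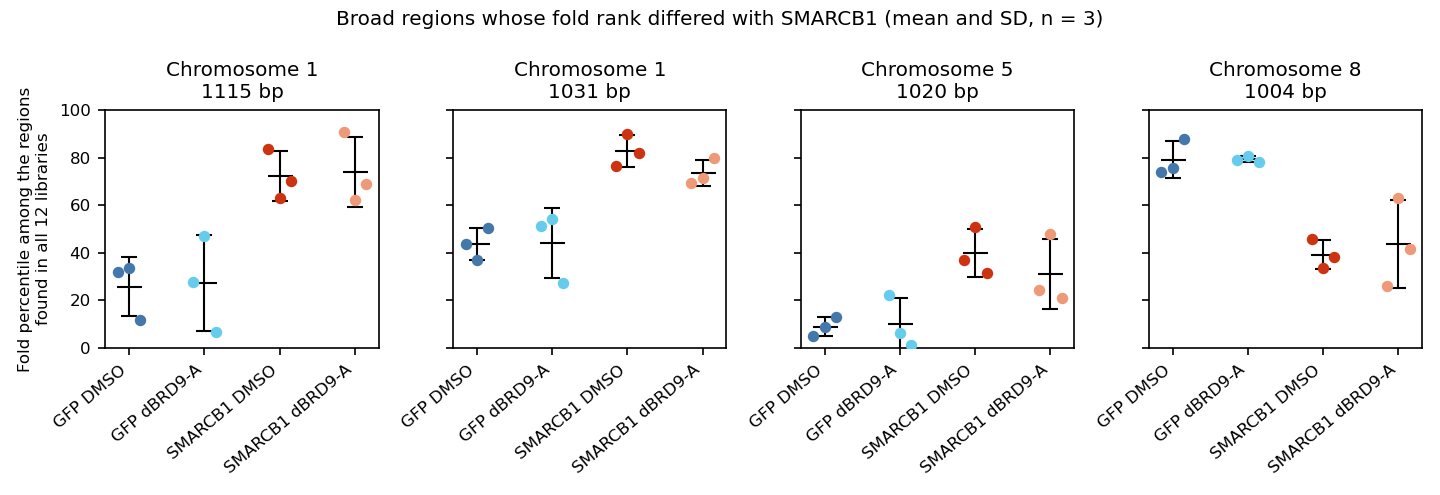
Fold percentile of each library (points) with the mean and SD of 3 libraries (bars) in the 4 broad regions called between SMARCB1 and GFP libraries. SMARCB1 libraries are higher in the chromosome 1 and chromosome 5 regions, by 46.7, 34.3 and 26.0 points, and lower in the chromosome 8 region, by 37.9 points on average.

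The 4 differences had like sizes in both treatments, with fewer libraries behind each. Within DMSO they were 46.6, 39.1, 30.9 and -39.9 points for the regions in the order given, and within dBRD9-A 46.8, 29.4, 21.1 and -35.9. Within a single treatment the main limma fit called 0 broad regions, against 2.29% of all regions in DMSO and 2.71% in dBRD9-A. The lowest limma adjusted p of a broad region was 0.0657 in DMSO and 0.0642 in dBRD9-A. On the centred log2 scale, limma in DMSO called chr1:205270068-205271098, chr1:209269291-209270405 and chr8:22418568-22419571 (adjusted p = 0.0496, 0.0479 and 0.0438). The fold averaged over a region's peaks also called chr1:209269291 in DMSO (limma adjusted p = 0.0442). Shares of all regions called on these scales are not given. At an unadjusted p under 0.05, there were 7 broad regions in DMSO, 12.5% against 14.9% of all, and 6 in dBRD9-A, 10.7% against 14.999%. Without GFP DMSO replicate 1 or SMARCB1 DMSO replicate 1, chr18:74897560-74898565 was called lower as well, by -32.4 and -31.9 points (limma adjusted p = 0.0360 and 0.0458). Without GFP DMSO replicate 3 or SMARCB1 DMSO replicate 2, chr21:46749599-46750781 was called higher as well, by 38.3 and 36.5 points (limma adjusted p = 0.0158 and 0.0353). Within DMSO, chr1:205270068-205271098 was called without GFP dBRD9-A replicate 3 (39.1 points, limma adjusted p = 0.0375). Fits that left out 1 library called 1093 to 1359 of all regions averaged over treatments and 160 to 430 in DMSO.

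Ranked by the pileup in place of the fold, a choice made after the data were seen, more broad regions differed. Of 17950 regions with a pileup recovered in every library, limma called 7.81% higher and 4.36% lower in SMARCB1 libraries, and of the broad regions 6 higher and 4 lower. Those higher were both chromosome 1 regions and the chromosome 5 region named above, with chr21:46749599-46750781, chr9:4984400-4985441 and chr3:170074476-170075573. Those lower were chr18:74897560-74898565, chr10:28973174-28974400, chr21:46493759-46495256 and chr1:167436015-167437059. The largest rise was that of chr21:46749599, 48.7 points (SE 8.25, limma adjusted p = 0.000492), with a pileup of 7 to 22 fragments in GFP and 25 to 44 in SMARCB1 libraries. The largest fall was that of chr18:74897560, by -47.5 points (SE 6.47, limma adjusted p = 5.27e-05), with 23 to 47 fragments in GFP and 11 to 19 in SMARCB1 libraries.

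The chromosome 10 region showed both scales at odds. Its pileup percentile was lower in SMARCB1 libraries by -30.0 points (SE 6.15, limma adjusted p = 0.00272), while the mean fold percentile of its peaks was higher by 27.6 points (SE 7.64, limma adjusted p = 0.0312). The further peaks that the GFP libraries alone had there enter the second value. The strongest summit lay at 771 to 1151 bp from the start in GFP and at 1137 to 1153 bp in SMARCB1 libraries. At the single strongest summit the fold was 9.15 to 11.8 in GFP and 10.6 to 17.2 in SMARCB1 libraries, which overlapped.

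dBRD9-A did not move the fold rank of any broad region past the threshold. Averaged over inductions, limma called 0 of the 18114 regions (0%), with a lowest adjusted p of 0.580 over all and 0.961 over the broad regions. Differences of the broad regions ran from -17.6 to 14.9 points with a median of 0.104, and 1 of 56 (1.79%) had an unadjusted p under 0.05, against 5.12% of all regions. In GFP libraries alone limma called 3 regions (0.0166%), and in SMARCB1 libraries alone 0, none of them broad. The difference between the effects in GFP and SMARCB1 libraries was called for 0 regions. A summit shift with dBRD9-A was called for 12 regions (0.0662%) and 0 broad regions. The 12 became 16 without GFP dBRD9-A replicate 1 and 24 to 38 without any other single library. Without SMARCB1 dBRD9-A replicate 1 it was called for chr17:47723636-47724708, by 258 bp (limma adjusted p = 0.0315). In the SMARCB1 libraries alone the same omission called that region, by 591 bp (limma adjusted p = 0.00184), and chr9:37464975-37465985, by 331 bp (limma adjusted p = 0.0447). For that contrast, fits that left out 1 library called 8 to 43 of all regions. A result that misses the threshold does not show that dBRD9-A left these regions alike, since a single region could differ widely between libraries of 1 group, from 6.62 to 47.0 in GFP dBRD9-A for chr1:209269291-209270405.

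The broad regions lay on 21 of the 24 chromosomes in the lists, with none on chromosomes 20, X and Y. Chromosome 19 held 10 of them, 17.9%, against 7.62% of the regions found in all libraries. Chromosome 1 held 6 and chromosome 2 held 4. Of them, 4 lay within 100 kb of another, all on chromosome 19: chr19:3275720-3276753 and chr19:3284861-3286019 were 8107 bp apart, and chr19:43728394-43729461 and chr19:43768571-43769722 were 39109 bp apart. The mean fold percentiles of the neighbours were 64.0 and 66.2 in the first and 38.6 and 42.8 in the second.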

How the data were processed

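The 12 ATAC-seq peak lists of G401 cells, 1 per library, come from fragments that the labels call nucleosome free, prepared with an Active Motif kit per the labels' protocols. The submitters' processing notes name BWA 0.7.12-r1039, SAMtools 1.2, bedtools 2.24.0, MACS2 2.1.1.20160309, DiffBind and DESeq2, and the build hg19. Which settings were used is not given in the sources used here. Peaks were called per library. For each peak the deposited lists hold the summit position, the fold enrichment as a ratio, the −log10 p-value and the −log10 q-value (lowest 1.30), and the authors' score, which was not used. Read counts are not in the lists, so no depth is given. Summit pileup and background were computed from the deposited fold, with its pseudocount of 1, and −log10 p, and were recovered for 99.9% of 742200 peaks within 0.0001. Peaks within a list did not overlap (0 pairs).

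Peaks were merged at an overlap of at least 1 bp. A region's fold in a library is that of its peak of highest fold, turned into a percentile among the 18114 regions in all lists. Percentiles and summit positions were fitted with limma 3.58.1 (R 4.3.3) on 4 group means, the percentiles with a mean-variance trend. P-values were adjusted by Benjamini-Hochberg over 18114 regions, with a threshold of 0.05. All 12 libraries share 1 estimate of the spread. Coordinates are 1-based. The named regions are the widest, those next to the width limit, those with most peaks, those of highest and lowest mean fold percentile, and those called. Others, such as those that differ between alternatives or in covered bases, were chosen after their values were seen. The rule, the comparisons and the alternatives were chosen with earlier results of these data known. A planned look at sequence and genes was not run, since no genome or annotation of hg19 was used. The fits were tried on simulated data with independent, normally distributed noise. Strongest summits that jump between separate peaks were not simulated, so that trial says nothing about them.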

Additional observations from a re-analysis of the deposited data

How the results depend on the processing

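The 56 broad regions became 51 at a −log10 q of at least 5, 44 with lists of equal length, 82 when peaks up to 100 bp apart were merged, 47 to 56 without 1 library, and 383 at a width of at least 750 bp. No region reached 1500 bp, so that limit gave no values. The difference in covered share between SMARCB1 and GFP libraries, 0.410 points, ranged from -1.69 to 4.28 without 1 library and was -7.58 for regions chosen from GFP and 19.4 for regions chosen from SMARCB1 libraries. That between dBRD9-A and DMSO, -1.81 points, ranged from -4.66 to 1.93. For regions chosen in replicates 1 and 2 it was 7.77 in replicate 3, with 1 library per group. Peaks per region differed by -0.0446 between inductions (-0.123 to -0.00154 without 1 library), by -0.345 with lists of equal length and by 0.255 for regions chosen from SMARCB1 libraries, where the dBRD9-A difference was 0.0885 (-0.0506 in the 56 regions, -0.0957 to 0.0123 without 1 library).

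Fold ranks called 1499 regions between inductions, 744 on a log2 scale without centring, 838 at a −log10 q of at least 5, and 1093 to 1359 without 1 library. Broad regions called were 3 to 4 higher and 1 to 2 lower without 1 library, 2 lower on the centred log2 scale, 6 higher and 4 lower by pileup, and 5 higher by −log10 p. The chr8:22418568 region reversed to 1.86 points by pileup. Its fall and the chr5:1327025 rise were not called by the mean over peaks, and the fall was not called by −log10 p. Both chromosome 1 regions kept direction and call in all 19 alternatives run on each. Single-treatment fits on the 2 groups alone called 258 regions in DMSO and 266 in dBRD9-A, against 414 and 490. Summit positions called 90 regions between inductions, 86 to 117 without 1 library, and 12 for dBRD9-A, 16 to 38 without 1 library. Broad regions among them were 1 to 2 higher and 0 to 1 lower between inductions and 0 to 1 for dBRD9-A (0 to 2 in SMARCB1 libraries alone). The exact permutation test called 0 in each of these, but with a smallest p of 0.005 over 18114 regions it could hardly call any. The cause of these differences was not tested.

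Same-numbered libraries of different groups had deviations correlated by -0.0584 to 0.206 (mean 0.0811, 5 of 18 pairs over 0.1). For libraries of other numbers the correlation was -0.156 to 0.125 (mean -0.0405, 1 of 36 pairs over 0.1). Library titles carry consecutive numbers within each replicate number, but no label says that these mark a batch. Whether same-numbered libraries belong together is thus not settled. The main fits leave the replicate number out, and a fit with it as a block is given next. With the replicate block, fold ranks called 1057 regions higher and 615 lower, with 3 and 1 broad regions, and summit positions 76 regions between inductions, with 1 broad region, and 7 for dBRD9-A. Within dBRD9-A the block added a fold rank call for chr1:209269291 (46.8 points, SE 12.3, limma adjusted p = 0.0473) and lost the summit call of chr3:32884324 (568 bp, SE 86.3, limma adjusted p = 0.0795). The lists hold no read counts, and median pileups of 13 to 24 fragments at the strongest summits limit how finely ranks and positions can be told apart.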
